A study of Mus musculus with 4 samples.

Results

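Cxcl1 and 9 other genes for chemokines and cytokines that skin epithelium can make were followed in epidermal basal cells of mouse embryos that had lost Ezh2. The 10 genes, Cxcl1, Cxcl2, Cxcl10, Cxcl12, Cxcl14, Ccl2, Ccl20, Il1a, Il1rn and Tslp, were represented by 17 probe sets among 45037 non-control probe sets, and are 10 of 18193 genes with a probe set of a single symbol. All probe sets annotated to 1 of these symbols alone were used, dim ones included. The genes were selected on their signal differences between Ezh2cKO and WT, over all arrays and within each replicate number, so these differences are described here without a test.

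Chemokines are small secreted proteins that guide migrating cells through receptors on their surface. Cxcl1 and Cxcl2 attract neutrophils through Cxcr2, Cxcl10 attracts T cells through Cxcr3, Ccl2 attracts monocytes through Ccr2, and Ccl20 attracts Langerhans cell precursors and some T cells through Ccr6. Keratinocytes also store the cytokine Il1a, make its antagonist Il1rn, and release the cytokine Tslp when the skin is damaged. In many cell types the inducible members are switched on by NF-kappaB and by AP-1 factors after injury or cytokine signals, whereas Cxcl12 and Cxcl14 are known for steady expression in tissues.

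Basal cells are the innermost layer of the epidermis and hold its progenitors. They were isolated by cell sorting from skin at embryonic day 16, and their RNA was hybridised to 4 Affymetrix arrays: 2 from Ezh2cKO embryos, in which Ezh2 was removed by a conditional knockout, and 2 from WT embryos, all of mixed C57 and CD1 strain background. Ezh2 is a histone methyltransferase of the Polycomb group, and its loss lifts a repressive mark from chromatin. The line that drove the knockout, the deleted exons, and whether animals were pooled are not given in the sources used here, and the labels number the arrays 1 and 2 in each genotype without saying that they came from separate animals.

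Ezh2 signal was 661 and 1308 on the Ezh2cKO arrays, against 3336 and 3603 on the WT arrays. Signals are MAS5 intensities on a linear scale, and values of a genotype are given in the order replicate 1, replicate 2. Differences are on the scale log2(signal + 16), which understates the change of dim genes. Folds within a replicate number and folds between the numbers are computed on the same scale. Those within a number come from 1 array per genotype. A mean signal of 73.2, the level above which the upper 60% of probe sets lay, is used to call a probe set dim. In a fit of all 27022 probe sets at or above that level (limma, Benjamini-Hochberg adjustment), 0 passed an adjusted p of 0.05 between the genotypes, while 94 (0.348%) were higher and 16 (0.0592%) lower in Ezh2cKO at an unadjusted p under 0.05. The labels do not say what separates the 2 arrays of a genotype, so these p-values measure only how far these arrays differ.

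The array Ezh2cKO 1 stood apart in its sex-linked RNA. Xist, the RNA that silences an X chromosome in female cells, read 86.9 and 11333 in Ezh2cKO and 8669 and 10527.0 in WT, so that Ezh2cKO 2 exceeded Ezh2cKO 1 by a log2 of 6.78. The Y-linked gene Eif2s3y was above the filter level on all 4 arrays, at 861 and 404 in Ezh2cKO and 222 and 535 in WT, and was highest on Ezh2cKO 1. Kdm5d and Uty, also Y-linked, were likewise highest there. The 2 Ezh2cKO arrays are therefore not repeats of 1 RNA sample, and each difference within number 1 sets arrays of unlike sex-linked RNA against each other. The part of sex in the differences below was not tested. Values within number 2 do not include Ezh2cKO 1, and Xist differed there by a log2 of 0.11. The Y-linked genes were lower in Ezh2cKO within number 2, at a log2 of -0.39 for Eif2s3y, -0.29 for Kdm5d and -0.37 for Uty. In WT these genes were higher on the array numbered 2 than on that numbered 1, by a log2 of 1.21, 1.17 and 1.01.

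The sorted cells carried the markers of basal keratinocytes, and also RNA of other skin cells. Krt5, a basal keratin, had 17243 and 16998 in Ezh2cKO and 18518 and 15518 in WT. Of the 8 basal markers, 4 were lower in Ezh2cKO within number 1 and 4 within number 2. Itga6 differed most, at 6327 and 9411 in Ezh2cKO and 11908 and 10639 in WT, lower within both numbers. Lama3 was higher in Ezh2cKO within both, by a log2 of 0.23 and 0.08. All 8 dermal fibroblast markers lay at or above the filter level, with summed signals of 47176 and 60802 in Ezh2cKO and 50332.5 and 57564.5 in WT. The 7 endothelial markers summed to 3950 and 8541 in Ezh2cKO and 7299 and 7959 in WT, and all 7 were lower in Ezh2cKO within number 1 and higher within number 2. Of 9 immune markers 5 were dim, among them Ptprc, the pan-leukocyte marker, at 41.1 and 33.2 in Ezh2cKO and 41.2 and 13.0 in WT. The other 4 lay at or above the filter level. Cd74 read 314 and 312 in Ezh2cKO and 359 and 264 in WT, and Csf1r 265 and 274 in Ezh2cKO and 341 and 222 in WT. Lyz2 read 155 and 119 in Ezh2cKO and 163 and 98.7 in WT, and Mrc1 125 and 126 in Ezh2cKO and 146 and 161 in WT. The part of immune cells in the chemokine and cytokine signals was not tested. The 9 summed to 1004 and 1016 in Ezh2cKO and 1146 and 935 in WT. Suprabasal keratinocyte markers (6 genes) summed to 51962 and 45888 in Ezh2cKO and 46924 and 40801 in WT, a sum made up mostly of Krt1, Krt10 and Krtdap. The late differentiation genes in that list differed more: Flg read 169 and 184 in Ezh2cKO and 23.8 and 29.5 in WT, Lor 5629 and 3423 in Ezh2cKO and 1753 and 2498 in WT, and Ivl 164 and 164 in Ezh2cKO and 50.7 and 128 in WT. Over the 6 genes the median log2 difference was 0.76 within number 1 and 0.27 within number 2, and its part in the chemokine and cytokine differences was not tested. The 6 melanocyte markers summed to 646 and 658 in Ezh2cKO and 983 and 656 in WT. In such bulk samples, fewer cells of a type and less RNA per cell cannot be told apart. At the low end, 6 genes of other organs that are not known from skin had signals between 1.06 and 115, and 1 of them, the pancreatic Cela2a, had 19.5 and 5.42 in Ezh2cKO and 115 and 6.95 in WT.

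**Figure D1:**
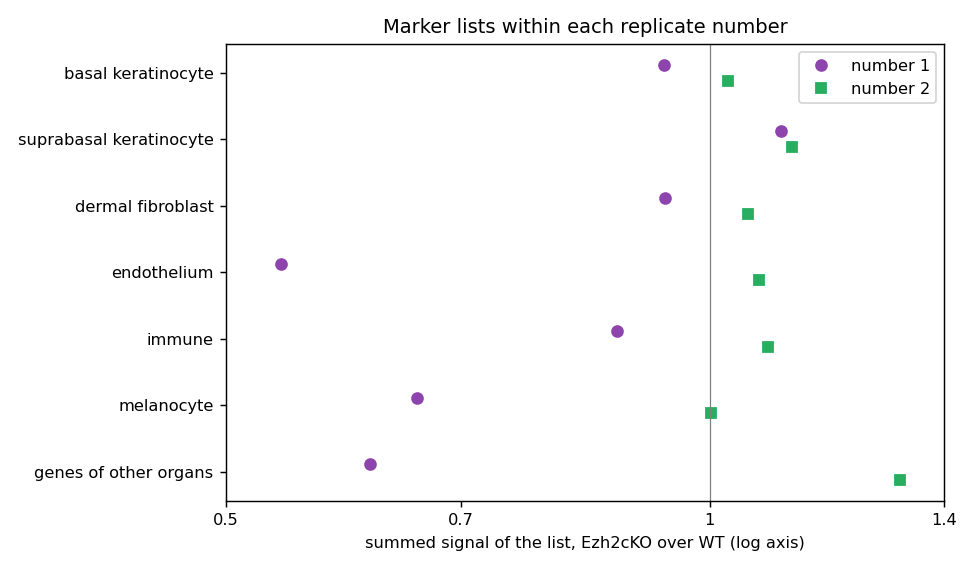
Ratio of the summed signal of each marker list, Ezh2cKO over WT (log axis), within replicate number 1 (circles) and number 2 (squares), from 1 array per genotype. Within number 1 the endothelial list stands lowest, at 0.541, and it lies at 1.07 within number 2, while the basal keratinocyte list lies at 0.937 and 1.03.

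Promoters were available from RefSeq (build GRCm38.p6) for 8 of the 10 genes, as windows from 250 bases before to 50 bases after the annotated start. They are shown for Cxcl1, Cxcl2 and Cxcl10, since the signals of these genes had the same order from low to high: WT 1, Ezh2cKO 1, WT 2 and Ezh2cKO 2. Tslp had this order too but no window, and Ccl2 had no window either. Of all 18193 genes, 1589 had this order. Capitals mark matches to 3 motifs searched on both strands, namely for NF-kappaB, GGG, any 3 bases and TTCC; for AP-1, TGANTCA, where N is any base; and for an interferon element, GAAA, any 2 bases and GAAA.
Cxcl1, chr5:90890995-90891294, plus strand: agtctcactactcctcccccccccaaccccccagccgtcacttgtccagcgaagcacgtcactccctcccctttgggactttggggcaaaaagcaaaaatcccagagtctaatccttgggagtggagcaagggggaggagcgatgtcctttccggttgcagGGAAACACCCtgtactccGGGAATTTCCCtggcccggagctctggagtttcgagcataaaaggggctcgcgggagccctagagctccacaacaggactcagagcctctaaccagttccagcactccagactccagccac
Cxcl2, chr5:90903649-90903948, plus strand: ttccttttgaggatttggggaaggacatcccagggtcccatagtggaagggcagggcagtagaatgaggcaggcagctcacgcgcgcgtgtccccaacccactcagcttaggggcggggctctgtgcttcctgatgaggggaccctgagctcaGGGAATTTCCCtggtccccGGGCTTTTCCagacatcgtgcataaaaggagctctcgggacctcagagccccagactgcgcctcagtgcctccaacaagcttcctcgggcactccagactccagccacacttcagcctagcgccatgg
Cxcl10, chr5:92348840-92349139, minus strand: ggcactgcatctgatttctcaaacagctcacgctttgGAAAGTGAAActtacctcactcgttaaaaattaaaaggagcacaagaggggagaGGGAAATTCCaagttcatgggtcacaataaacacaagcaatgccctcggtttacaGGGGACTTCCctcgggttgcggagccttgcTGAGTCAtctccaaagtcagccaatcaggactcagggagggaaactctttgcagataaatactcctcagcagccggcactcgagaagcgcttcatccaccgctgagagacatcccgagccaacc
Cxcl1 and Cxcl2 are neighbours on chromosome 5, and their windows begin 12654 bases apart. Both hold GGGAATTTCCC, which gives overlapping NF-kappaB matches on the 2 strands. GGGAATTTCC lies at bases -71 to -62 in Cxcl1 and -97 to -88 in Cxcl2, counting the start base as 0. GGAATTTCCC, a match on the other strand, lies at -70 to -61 in Cxcl1 and -96 to -87 in Cxcl2. A further, separate match lies at -89 to -80 in Cxcl1 (GGAAACACCC, on the other strand) and at -78 to -69 in Cxcl2 (GGGCTTTTCC). Cxcl10 holds 2 NF-kappaB matches, 1 AP-1 match and 1 interferon element match, none of which overlap. Among all 32851 RefSeq promoter windows, 5.56% held the NF-kappaB letters, 7.81% the AP-1 letters and 3.44% the interferon element letters.

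**Figure D2:**
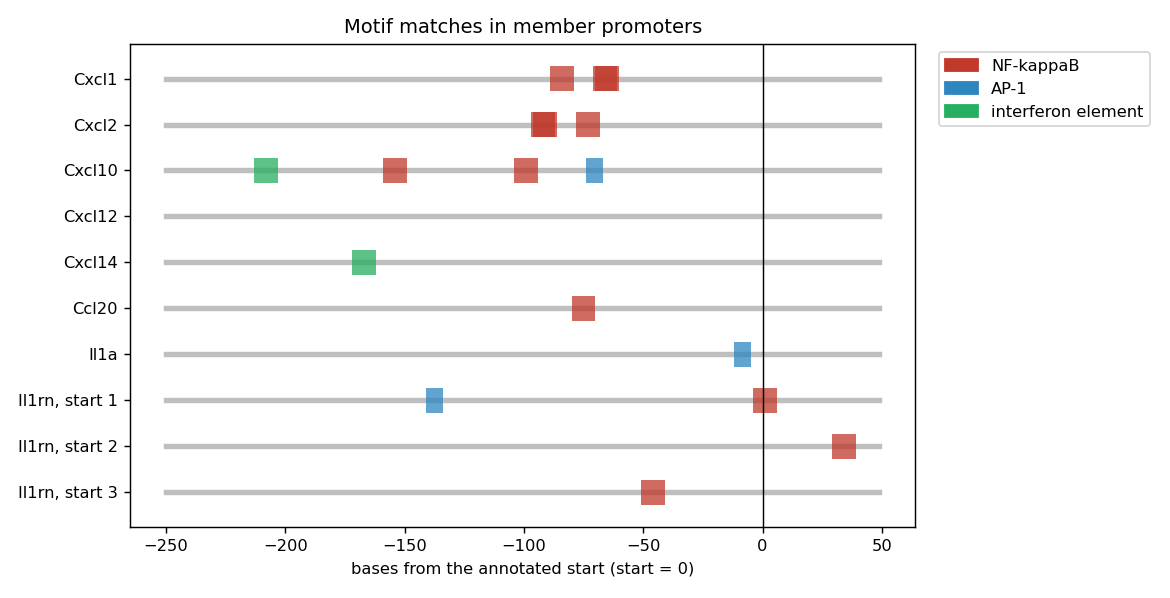
Positions of motif matches (coloured blocks) in the promoter windows of the 8 genes, in bases from the annotated start, with 3 starts for Il1rn. NF-kappaB matches lie in windows of Cxcl1, Cxcl2, Cxcl10, Ccl20 and Il1rn (5 genes), AP-1 matches in 3 genes, interferon element matches in 2, and Cxcl12 has none of the 3. Counted by gene over all 27025 genes with windows, 6.31% held the NF-kappaB letters, 8.97% the AP-1 letters and 3.99% the interferon element letters.

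The Ccl20 window held 1 NF-kappaB match, at -80 to -71. Il1rn has 3 annotated starts, each with 1 NF-kappaB match, and the windows of the 2nd and 3rd overlap and share the same letters. Il1a held an AP-1 match at -12 to -6, and the first Il1rn start one at -141 to -135. Cxcl14 held only an interferon element match, at -172 to -163. A match describes the letters of a window only.

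Cxcl1, the neutrophil chemokine, had higher signal in Ezh2cKO than in WT within both replicate numbers, but it differed more between the numbers than between the genotypes. In its brightest probe set the genotype factor was nearly the same in both numbers. That probe set read 1661 and 12497 in Ezh2cKO and 818 and 6418 in WT. Both arrays numbered 2 lay above both arrays numbered 1, so the genotypes overlapped: the lower Ezh2cKO array was below the higher WT array. The fold of Ezh2cKO over WT was 2.01 within number 1 and 1.94 within number 2, with a mean log2 difference of 0.98. Number 2 over number 1 was 7.46-fold in Ezh2cKO and 7.72-fold in WT.

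The other Cxcl1 probe sets were also higher in Ezh2cKO within both numbers and higher on the arrays numbered 2, but by other factors. One read 1195 and 7521 in Ezh2cKO and 454 and 3887 in WT, which is 2.57-fold and 1.93-fold higher in Ezh2cKO within the numbers. The remaining one read 1965 and 5817 in Ezh2cKO and 1152 and 3914 in WT, 1.70-fold and 1.48-fold. Number 2 over number 1 was 6.22-fold in Ezh2cKO and 8.30-fold in WT for the former, and 2.94-fold and 3.36-fold for the latter. All 3 had the same order of the 4 arrays. With 1 array left out, the mean log2 difference of the brightest probe set was -0.49 without WT replicate 1, -0.47 without Ezh2cKO replicate 2, 2.46 without WT replicate 2 and, with Ezh2cKO replicate 1 left out, 2.43, because each such mean then sets unequal replicate numbers against each other.

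Cxcl2, a close relative of Cxcl1 that uses the same receptor, was near the filter level on the arrays numbered 1 and bright on those numbered 2. It read 74.2 and 1641 in Ezh2cKO and 47.8 and 360.0 in WT. Here the genotype difference was not alike in the numbers: 1.41-fold within number 1 and 4.41-fold within number 2, from 1 array per genotype each, so the difference between the 2 folds could not be tested. Number 2 over number 1 was 18.4-fold in Ezh2cKO and 5.90-fold in WT, and the genotypes overlapped. The mean log2 difference of 1.32 was -0.78 without Ezh2cKO replicate 2, 0.04 without WT replicate 1, 2.60 without WT replicate 2 and, with Ezh2cKO replicate 1 left out, 3.42.

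Cxcl10, a chemokine known to be induced by interferon as well as NF-kappaB, followed the same course. It read 96.0 and 1655 in Ezh2cKO and 61.5 and 608 in WT, 1.44-fold and 2.68-fold higher in Ezh2cKO within the numbers. Number 2 over number 1 was 14.9-fold in Ezh2cKO and 8.04-fold in WT, and again both arrays numbered 2 lay above both numbered 1. The mean log2 difference was 0.98 over all arrays, -0.97 without Ezh2cKO replicate 2, -0.53 without WT replicate 1, 2.48 without WT replicate 2 and, with Ezh2cKO replicate 1 left out, 2.93.

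Ccl2, the monocyte chemokine, had the largest difference between the numbers of the 10 genes. It read 50.6 and 3000.2 in Ezh2cKO and 69.5 and 1109 in WT. Within number 1 both arrays were below the filter level and Ezh2cKO was 0.778 times WT, whereas within number 2 Ezh2cKO was 2.68-fold higher. Number 2 over number 1 was 45.3-fold in Ezh2cKO and 13.2-fold in WT. Dermal fibroblasts are another known source of Ccl2, and the summed signal of their markers in Ezh2cKO was 0.937 times that in WT within number 1 and 1.06 times within number 2. Between the numbers these markers had a median log2 difference of 0.51, higher in number 2; the part of these cells in the Ccl2 signal was not tested. The mean log2 difference of 0.53 was -2.22 without Ezh2cKO replicate 2, -1.33 without WT replicate 1, 2.39 without WT replicate 2 and, with Ezh2cKO replicate 1 left out, 3.28. Ccl20, its CC family relative, was dim on every array, at 9.57 and 28.6 in Ezh2cKO and 16.3 and 18.7 in WT. These Ccl20 values lie in the range of the genes of other organs, with folds of 0.792 and 1.29 within the numbers. The mean log2 difference of Ccl20, 0.01 with all arrays, became -0.39 when Ezh2cKO replicate 2 was left out, 0.42 when Ezh2cKO replicate 1 was, and -0.04 when WT replicate 1 was.

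Cxcl14 was bright on all 4 arrays and changed little with either number or genotype. Its brightest probe set read 11140 and 9738 in Ezh2cKO and 10476 and 7437 in WT, which is 1.06-fold and 1.31-fold within the numbers. The mean was 10439 ± 991 in Ezh2cKO and 8957 ± 2149 in WT (SD, n = 2 each), a difference smaller than the spread within WT. The second probe set read 10023 and 9493 in Ezh2cKO and 10018 and 8531 in WT, with a log2 difference of 0.08. Unlike Cxcl1, Cxcl14 was lower on the arrays numbered 2 in both genotypes, at 0.874 times in Ezh2cKO and 0.710 times in WT. Without WT replicate 2 its mean log2 difference was -0.01, against 0.24 with all arrays.

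Cxcl12, the ligand of Cxcr4, is made mainly by mesenchymal and endothelial cells in skin. Its brightest probe set read 426 and 1010.2 in Ezh2cKO and 717 and 774 in WT, 0.602 times within number 1 and 1.30-fold within number 2. The endothelial markers moved alongside, with a summed ratio of 0.541 within number 1 and 1.07 within number 2, and their part in the Cxcl12 result was not tested. A second probe set read 397 and 615 in Ezh2cKO and 487 and 635 in WT, lower in Ezh2cKO within both numbers, at 0.821 and 0.969 times. The dimmest read 25.6 and 48.4 in Ezh2cKO and 16.9 and 24.8 in WT, below the filter level, with both Ezh2cKO arrays above both WT arrays. The probe sets of Cxcl12 thus disagree in sign, and the mean log2 difference of the brightest was 0.43 without Ezh2cKO replicate 1, against -0.18 with all arrays.

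Among the cytokines, Il1a and Tslp had higher signal in Ezh2cKO in each number, but from dim signals. Il1a, an alarm cytokine stored in keratinocytes, read 30.9 and 25.05 in Ezh2cKO and 6.51 and 9.53 in WT, and was the only one of the 10 genes, by its brightest probe set, with both Ezh2cKO arrays above both WT arrays. Between the numbers it differed in opposite directions, 0.876 times in Ezh2cKO and 1.13-fold in WT. All 4 Il1a signals lie inside the range of the genes of other organs, and its log2 difference of 0.87 became 1.70 with 1 added to the signals and 0.35 with 64 added.

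Tslp, which acts on dendritic cells and lymphocytes through Crlf2 and Il7r, read 25.5 and 129 in Ezh2cKO and 2.77 and 59.1 in WT. It was 2.21-fold and 1.93-fold higher in Ezh2cKO within the numbers, and a mean log2 of 1.90 higher in number 2 than in number 1. Only the Ezh2cKO array numbered 2 exceeded the filter level. The mean log2 difference was 1.05, against 0.05 without WT replicate 1, 0.14 without Ezh2cKO replicate 2, 1.95 without Ezh2cKO replicate 1 and 2.04 without WT replicate 2. With 1 added to the signals it was 1.96, and with 64 added 0.53.

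Il1rn, the antagonist that blocks the Il1a receptor, had 3 probe sets that did not move together. The brightest read 147 and 109.6 in Ezh2cKO and 155 and 67.5 in WT, a log2 difference of -0.07 within number 1 and 0.59 within number 2. A second read 138 and 131 in Ezh2cKO and 133 and 75.3 in WT, so that the low value in both was the WT array numbered 2. The other, dim by a narrow margin with a mean of 72.9, read 81.3 and 49.3 in Ezh2cKO and 87.1 and 73.9 in WT and was lower in Ezh2cKO within both numbers. The log2 difference of the brightest was 0.26 over all arrays, -0.26 without WT replicate 2, 0.07 without Ezh2cKO replicate 1, 0.45 without Ezh2cKO replicate 2 and 0.78 without WT replicate 1.

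**Figure D3:**
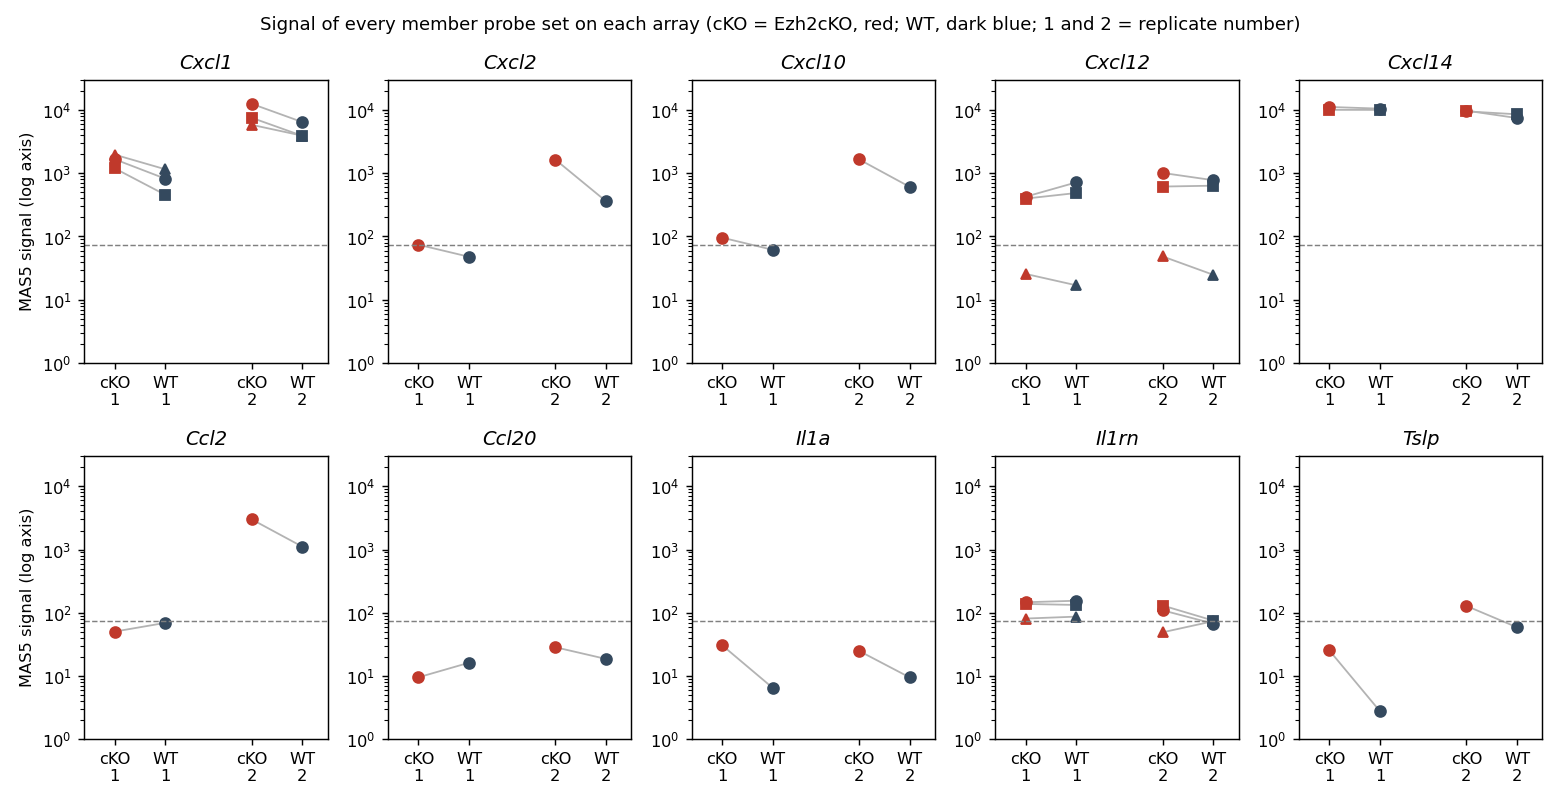
MAS5 signal (log axis) of all 17 probe sets of the 10 genes on each array, Ezh2cKO left of WT within each replicate number, with lines joining the same probe set 1 marker shape per probe set and a dashed line at the filter level of 73.2. Cxcl1, Cxcl2, Cxcl10, Ccl2 and Tslp stand higher on both arrays numbered 2, while Cxcl14 is level and Ccl20 and Il1a stay low.

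Over the 10 genes, by brightest probe set, 6 had higher signal in Ezh2cKO in each number and 0 had lower signal in each, where 25.5% and 24.7% of all 18193 genes were. By the stricter rule of both Ezh2cKO arrays above both WT arrays, 1 of 10 passed, where 9.9% of all genes did, and 0 of 10 lay below both, where 9.14% did. The median log2 difference of the 10 was 0.29 within number 1 and 0.82 within number 2, against 0.00 in both for all genes. Since the genes were chosen with this contrast known, nothing is read from these shares. At least a 1.5-fold higher signal in Ezh2cKO was seen for 3 of the 10 within number 1 (Cxcl1, Il1a and Tslp), where 5.72% of all genes reached it, and for 7 within number 2, where 6.79% did. The 3 reached it within both numbers, as did 1.24% of all genes. Within number 2 they were joined by Cxcl2, Cxcl10, Ccl2 and Il1rn.

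**Figure D4:**
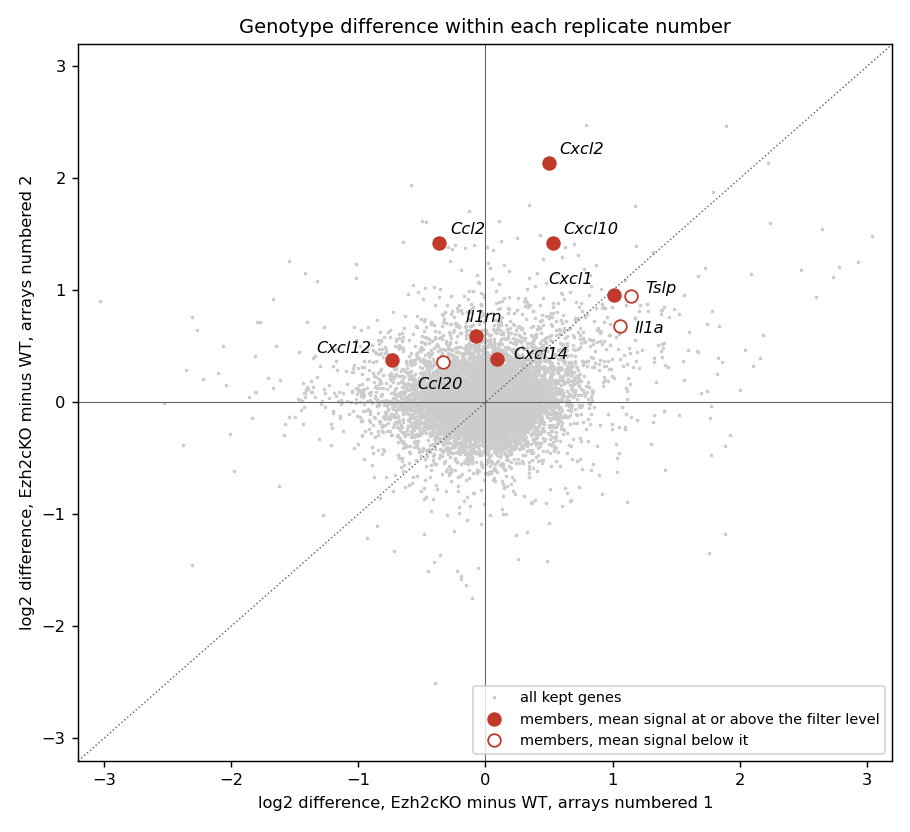
Log2 difference of Ezh2cKO minus WT within the arrays numbered 1 (x axis) and numbered 2 (y axis), for the 10 genes by their brightest probe set (red, open where the mean signal is below the filter level) and the 12703 genes at or above it (grey, 5 of them outside the axes). Cxcl1 lies on the dotted line of equal differences, at 1.01 and 0.96, whereas Cxcl2 and Ccl2 lie well above it, at 0.50 and 2.14 and at -0.36 and 1.42.

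The genes were chosen with earlier results of these data known, so the difference between the replicate numbers is also described without a test. In both genotypes, 5 of the 10, Cxcl1, Cxcl2, Cxcl10, Ccl2 and Tslp, were at least 2-fold higher on the array numbered 2, and 0 were 2-fold lower. Of all genes, 2.11% were at least 2-fold higher and 0.39% lower in both genotypes. The median log2 difference of number 2 minus number 1 was 1.28 for the 10 genes and 0.06 for all genes. At the level of probe sets at or above the filter level, 2069 of 27022 were at least 2-fold higher in both genotypes and 84 were lower. That is a larger share than among genes. The median signal of all non-control probe sets was 87.4 and 148 in Ezh2cKO and 91.6 and 137 in WT. A rise on the arrays numbered 2 was thus not particular to the 10 genes. Markers of other cell types moved with the numbers too: the median log2 of number 2 minus number 1 was 0.80 for endothelium, with 6 of 7 genes higher in both genotypes, and 0.51 for dermal fibroblasts, with 6 of 8, against -0.15 for basal keratinocytes. The part of these cells in the chemokine and cytokine differences between the numbers was not tested. What the numbers stand for is not stated in the labels.

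Receptors of these ligands were measured beside them. The lists of related genes, like the 10 genes, were chosen with earlier results of these data known, so nothing is read from their shares. Of 17 receptor genes listed, 10 were at or above the filter level, and 0 passed limma's adjusted threshold in either direction. None was 2-fold higher on the arrays numbered 2 in both genotypes, where 1.9% of genes at or above the filter level were. Cxcr4, the receptor of Cxcl12, read 793 and 656 in Ezh2cKO and 953 and 799.8 in WT, and Ackr4, a scavenger receptor for chemokines, read 138 and 178 in Ezh2cKO and 220.4 and 188 in WT. In both, the 2 Ezh2cKO arrays lay below the 2 WT arrays, as they did for 8.39% of the genes at or above the filter level. Il1rap, the coreceptor for Il1a, read 528 and 648 in Ezh2cKO and 474 and 574 in WT, and Ackr3, a second receptor for Cxcl12, read 1349 and 1075 in Ezh2cKO and 1346 and 1280.1 in WT. Cxcr2, through which Cxcl1 and Cxcl2 act on neutrophils, was dim at 17.1 and 18.8 in Ezh2cKO and 5.23 and 10.8 in WT. Among the other dim receptors, Il1r2 and Il7r were lower in Ezh2cKO within both numbers, and Ccr1 and Ccr2 differed in opposite directions between the numbers.

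Of 35 other chemokines and cytokines of skin listed, 17 were at or above the filter level and 0 passed the adjusted threshold, with 1 higher at an unadjusted p under 0.05. Both Ezh2cKO arrays lay above both WT arrays for 6 of the 17 (Tnf, Il18, Cxcl16, Il33, Il34 and Ccl27a) and below both for 1, where 8.52% and 8.39% of the genes at or above the filter level did so. Tnf, an activator of NF-kappaB, read 241 and 515 in Ezh2cKO and 87.0 and 193 in WT, a log2 difference of 1.33 (SE 0.52, limma adjusted p = 0.999979) with folds of 2.50 and 2.54 within the numbers. Il18, a cytokine of the Il1 family, read 163 and 144 in Ezh2cKO and 73.9 and 72.5 in WT, a log2 difference of 0.93 (SE 0.41, limma adjusted p = 0.999979). Cxcl16, a membrane-bound chemokine, read 226 and 380.3 in Ezh2cKO and 151 and 203 in WT. Cx3cl1, the other membrane-bound chemokine, read 419.9 and 459 in Ezh2cKO and 528 and 582 in WT.

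Il6 was named after its values were seen. This cytokine of acute inflammation read 15.2 and 4686 in Ezh2cKO and 2.77 and 2592 in WT. It was thus near the low end on both arrays numbered 1 and bright on both numbered 2, 151-fold and 139-fold apart in Ezh2cKO and WT. Within number 2 its signal in Ezh2cKO exceeded that in WT by a log2 of 0.85.

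The NF-kappaB list holds subunits, feedback inhibitors and targets of the pathway, with a median log2 of 0.82 for number 2 minus number 1 and 0.19 for Ezh2cKO minus WT. Of 21 listed, 19 were at or above the filter level, 0 passed the adjusted threshold, and 9 had higher and 0 lower signal in Ezh2cKO in each number, where 25.2% and 25.6% of genes were. Tnfaip3, a feedback inhibitor that NF-kappaB induces, read 758 and 4365 in Ezh2cKO and 593 and 1274 in WT, 1.27-fold and 3.40-fold higher in Ezh2cKO. Ier3, an early response gene, read 1324 and 5352 in Ezh2cKO and 947 and 2547 in WT. Nfkbib, an inhibitor of NF-kappaB, read 1063 and 1258 in Ezh2cKO and 887 and 852 in WT, with a second probe set that differed the other way (log2 -0.28 against 0.40). The subunit gene Rela read 3514 and 4408 in Ezh2cKO and 3327 and 3637 in WT. At least 2-fold higher on the array numbered 2 in both genotypes were 6 of the 19: Bcl3, Nfkbiz, Tnfaip3, Ptgs2, Ier3 and Cebpd.

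Of 13 interferon-induced genes listed beside Cxcl10, 7 were at or above the filter level, and 0 passed the adjusted threshold. Irf7 read 100.4 and 193 in Ezh2cKO and 83.7 and 104 in WT, Gbp2 read 78.7 and 301 in Ezh2cKO and 67.8 and 167 in WT, and Rsad2 read 154 and 182 in Ezh2cKO and 157 and 151 in WT. Irf1, a factor induced by interferon and by NF-kappaB, read 472 and 5685 in Ezh2cKO and 483 and 3214 in WT. Number 2 over number 1 was 11.7-fold in Ezh2cKO and 6.47-fold in WT for Irf1. Ifit1, a classical interferon target, was dim at 41.3 and 63.1 in Ezh2cKO and 35.5 and 55.9 in WT. It was higher in Ezh2cKO within both numbers, by a log2 of 0.16 and 0.14. The dim genes Ifit3 (log2 -0.46 and -0.08), Oasl2 (-0.39 and -0.04) and Usp18 (-0.39 and -0.36) were lower within both.

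Immediate early genes respond within minutes to growth factors, stress and cell dissociation. In Ezh2cKO, 15 of 17 immediate early and heat shock genes had higher signal within both numbers and 0 had lower signal, where 25.2% and 25.6% of genes did. On the arrays numbered 2, 9 were at least 2-fold higher in both genotypes, where 1.9% were. This list too was chosen with earlier results of these data known, so nothing is read from these shares. None of the 17 passed limma's adjusted threshold, and 1 was higher at an unadjusted p under 0.05. The list median was 0.71 within number 1 and 0.51 within number 2, against 0.02 and -0.01 for all genes at or above the filter level. Hspa1a, a heat shock chaperone, read 1934 and 1892 in Ezh2cKO and 1470.1 and 911 in WT. Ier2 read 6438 and 9456 in Ezh2cKO and 4315 and 6187 in WT, Egr1 read 11873 and 15329 in Ezh2cKO and 6974 and 11888.5 in WT, and Fos read 14329 and 13332 in Ezh2cKO and 9850.2 and 12640.1 in WT. The 9 genes that were 2-fold higher on the arrays numbered 2 share that direction with Cxcl1, Cxcl2, Cxcl10, Ccl2 and Tslp, and their part in the chemokine differences was not tested.

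**Figure D5:**
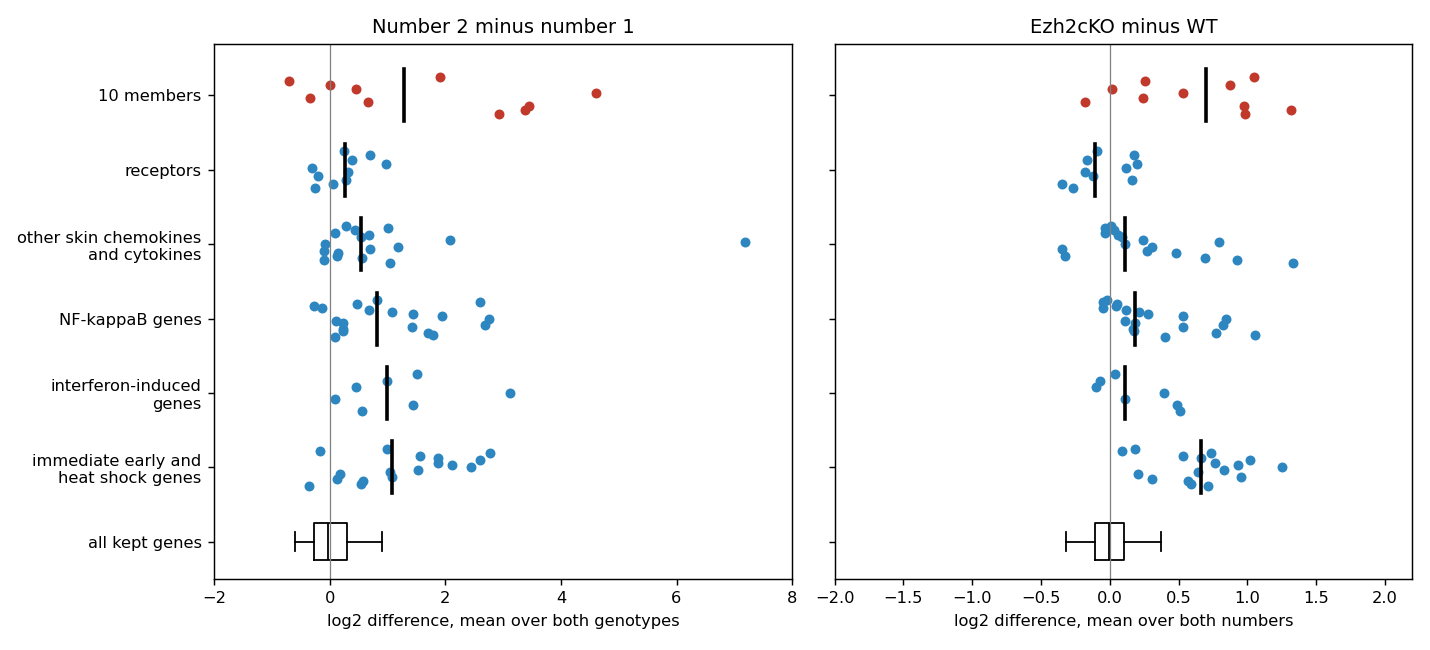
Log2 difference of number 2 minus number 1 (left, mean over both genotypes) and of Ezh2cKO minus WT (right, mean over both numbers) for the 10 genes, 5 lists of related genes (brightest probe set at or above the filter level) and all genes at or above it; points are genes, thick bars medians, and the box shows quartiles with whiskers at the 5th and 95th percentiles. The medians on the left are 1.28 for the 10 genes, 1.07 for immediate early and heat shock genes, 0.26 for receptors and -0.04 for all genes.

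The 5 genes whose profile over the 4 arrays was most like that of Cxcl1 came from the whole table of genes with a probe set at or above the filter level. Likeness was the root mean square difference between log2 values centred on each probe set's mean, over 4 arrays from 1 tissue, and is a description of these arrays. Ptgs2, the inducible enzyme of prostaglandin synthesis, was nearest at 0.13, with 36.6 and 305 in Ezh2cKO and 10.6 and 181 in WT. Atf3, a stress-induced transcription factor, followed at 0.15, with 873 and 6180.2 in Ezh2cKO and 528 and 3649 in WT. Nfkbiz, a nuclear regulator of NF-kappaB target genes, came next at 0.17, with 820 and 5966 in Ezh2cKO and 511 and 3003 in WT. Tnfsf9, a ligand of the tumour necrosis factor family, read 103 and 1101 in Ezh2cKO and 64.6 and 486 in WT, and Fosl1, an AP-1 subunit, read 85.8 and 744 in Ezh2cKO and 45.5 and 289 in WT. Among the other 9 chemokine and cytokine genes, Cxcl10 was the nearest, at 0.35 and rank 12.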

How the data were processed

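Each probe set has 1 deposited intensity per array, a linear MAS5 signal; the algorithm is named, with no version, in the submitters' processing notes. The authors' scaling was kept: the mean after trimming 2% at each end lay between 498.6 and 498.8 on the 4 arrays once 64 control probe sets were left out. Median signals were 87.4 and 148 in Ezh2cKO and 91.6 and 137 in WT. Detection calls were not used here, so background is unknown, and the number of arrays limits the precision. Arrays were grouped by sample title.

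Probe sets were named from the platform annotation, with symbols updated by gene identifier through RefSeq (34741 of 34945 with 1 symbol matched). A gene's level is that of its brightest probe set. The Ezh2cKO and WT arrays were fitted in R 4.3.3 by limma 3.58.1, using eBayes with an intensity trend and no block, on log2(signal + 16), over the upper 60% by mean signal. The fit was run on simulated data with normal noise of equal spread for all probe sets, only to check that added differences were returned. That run does not measure how the fit behaves with the spread of these arrays. The members and lists were chosen with earlier results of these data known. Named genes were all members, Ezh2, up to 4 per list by moderated t, and the 5 most like Cxcl1. Il6, the dim receptors and interferon-induced genes, Cela2a, Itga6 and Lama3 were named after their values were seen. So were the suprabasal markers, the brighter immune markers and the sex-linked genes. Alternatives were other pseudocounts, filters and normalizations, the replicate block, no trend, averaging the probe sets of each gene, and dropping each array in turn.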

Additional observations from a re-analysis of the deposited data

How the results depend on the processing

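Counts of calls were 0 under pseudocounts of 1 and 64, no intensity trend, scaling to a common median, quantile normalization, the upper 40% and no filter, and counts of called list genes were also 0 with the mean of probe sets. With the replicate number as a block, 6 probe sets passed an adjusted p of 0.05, 5 higher and 1 lower, among them Ezh2 and the brightest of Cxcl1, and 0 list genes; Cxcl1 was selected on this contrast, so the call is no separate support. Same-numbered arrays deviated together (correlation 0.77 over probe sets), but with 2 pairs and no statement in the labels they share only a number. With 1 array left out, where the lone array is assumed to vary like the others, 0 to 52 probe sets and 0 to 14 list genes were called. Both highest counts came without WT replicate 2, where the 52 held 6 probe sets of Cxcl1, Cxcl2, Cxcl10 and Ccl2; that fit has WT replicate 1 as its only WT array. The number of the 10 genes above both WT arrays, 1 as reported, was 2 with quantile normalization and 2 to 8 with an array left out, and the number below both was 0 to 3 with an array left out. Mean log2 differences with 1 array left out ran from -0.49 to 2.46 for Cxcl1, -0.78 to 3.42 for Cxcl2, -0.97 to 2.93 for Cxcl10, -0.79 to 0.43 for Cxcl12, -0.01 to 0.49 for Cxcl14, -2.22 to 3.28 for Ccl2, -0.39 to 0.42 for Ccl20, 0.78 to 0.97 for Il1a, -0.26 to 0.78 for Il1rn and 0.05 to 2.04 for Tslp. Il1a was 1.70 at a pseudocount of 1 and 0.35 at 64, since its signals are near the pseudocount. In the settings that keep all arrays, the sign changed for Cxcl12 (0.05 with the mean of probe sets) and for Ccl20 (-0.09 with quantile normalization, -0.06 at a pseudocount of 1 and -0.04 with a common median), and for no other of the 10 genes. Dim signals and 2 arrays per genotype limit all values of Il1a, Tslp and Ccl20.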
